A study of Rattus norvegicus with 4 samples.

Results

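Collagens are the trimeric proteins that give the extracellular matrix its tensile strength, and each chain of a trimer has its own gene. The genes described here are those whose name in the array files is Col, a number, the letter a and a number, which took 29 of the 35658 gene names on the array, read by 42 probes. Membership followed the name alone, but the group was chosen with earlier results of these data known. Following the known assembly of each chain, 9 genes encode fibrillar chains (15 probes), 3 encode basement membrane chains of type IV (4 probes) and 17 encode other chains (23 probes). No probe carried the name Col4a1, so the partner of Col4a2 is not described.

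RNA came from cultured testicular peritubular myoid cells of male rats, isolated at 40 days of age and kept for 4 days in a medium with defined growth factors. The 2 testosterone arrays held RNA of cells given pulses of 1e-07 M testosterone, and the 2 control arrays held RNA of control cells, whose vehicle the labels do not give. Gene expression was measured on 4 one-colour arrays of 1 slide, numbered 1 and 2 within each group by their titles. The labels do not say whether the numbers stand for cultures, animals or hybridisations, and a p-value here reflects no more than how far these 4 arrays scatter, which could be technical scatter.

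In the testis, peritubular myoid cells surround the seminiferous tubule and lay down much of the matrix of its wall, and together with Sertoli cells they build the tubule's basement membrane. Fibrillar chains of types I, III and V pack side by side into cables, with type V chains setting fibril width. Type IV chains form the sheet-like network of basement membranes. Type VI chains form beaded filaments between sheets and cables, and the chains of the other types decorate fibrils, span the cell membrane or link sheets to fibrils.

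Levels are on the log2 scale, with the 75th percentile of the same array's spots set to 0. A probe's level also depends on its own binding, and no probe is set against another. Some spots were well above background, the scanner software's flag for a spot clearly brighter than its surroundings. Their share was 63.5% on each array numbered 1. On the arrays numbered 2 it was higher, at 68.2% with testosterone and 66.6% in control. Markers of the labelled cell type were mixed. Of 8 smooth muscle markers, Acta2 and Myh11 had no probe of that name, Cnn1 was below background on all 4 arrays, and Myl9, Tpm2, Des, Actg2 and Tagln were well above it on all 4. Markers of other testis cells were also well above background on all 4 arrays, among them Star and Insl3 of Leydig cells and Cd68 and Tyrobp of macrophages. The RNA is from whole cultures, in which fewer cells of a type and less RNA per cell cannot be told apart.

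The upstream sequences of the collagen genes were searched for AGAACA, the half-site whose repeats the androgen receptor binds. Single half-sites and not repeats were searched for, and whether they bear on the testosterone comparison was not tested. RefSeq's table for build GRCr8 held the 250 bases before the annotated start of 22 of the 29 genes. AGAACA, on either strand, was in 3 of the 22 and in 17.5% of 33469 such windows. The 3 were Col5a1, Col9a1 and Col8a2. CCAAT, the box bound by the collagen promoter factor CBF, was in 6 of the 22 and in 34.0% of all windows, again on either strand. The windows of Col5a1 and Col9a1 are shown because they hold the half-site and these genes were measurable, and those of Col6a3 and Col18a1 because their signals differed most clearly between array numbers. Capitals mark AGAACA or CCAAT on either strand, and a match is a description of letters and not a site of binding. The windows lie at chromosome 3, 31606630 to 31606879 (plus strand), chromosome 9, 34081114 to 34081363 (plus strand), chromosome 9, 98886959 to 98887208 (minus strand), and chromosome 20, 11473395 to 11473644 (plus strand), in the order printed.
Col5a1: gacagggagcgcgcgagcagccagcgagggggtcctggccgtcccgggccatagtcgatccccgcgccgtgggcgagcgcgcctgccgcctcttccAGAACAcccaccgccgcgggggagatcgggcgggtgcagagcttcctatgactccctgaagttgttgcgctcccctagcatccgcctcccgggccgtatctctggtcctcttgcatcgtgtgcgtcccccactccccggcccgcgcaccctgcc
Col9a1: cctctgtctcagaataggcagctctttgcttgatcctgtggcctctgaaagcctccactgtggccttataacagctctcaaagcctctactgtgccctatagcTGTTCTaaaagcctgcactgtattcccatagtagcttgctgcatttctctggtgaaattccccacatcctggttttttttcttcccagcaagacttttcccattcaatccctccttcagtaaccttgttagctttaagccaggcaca
Col6a3: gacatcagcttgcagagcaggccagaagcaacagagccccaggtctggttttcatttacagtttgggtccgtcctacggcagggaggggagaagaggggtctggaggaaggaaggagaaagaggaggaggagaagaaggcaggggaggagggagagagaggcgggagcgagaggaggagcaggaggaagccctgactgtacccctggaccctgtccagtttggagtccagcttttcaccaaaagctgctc
Col18a1: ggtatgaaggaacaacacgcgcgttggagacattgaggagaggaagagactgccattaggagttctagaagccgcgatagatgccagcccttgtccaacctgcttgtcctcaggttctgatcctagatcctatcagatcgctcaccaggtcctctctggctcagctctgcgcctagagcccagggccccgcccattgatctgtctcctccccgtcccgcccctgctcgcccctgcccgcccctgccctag
The half-site began 154 bases before the annotated start of Col5a1 and 147 bases before that of Col9a1. The windows of Col6a3 and Col18a1 held neither motif.

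Of the 42 probes, 30 were well above background on all 4 arrays, covering 21 genes, and these 30 were the ones tested. The other 12 probes cover 8 genes. Both probes of Col10a1, Col14a1 and Col9a3 and the single probes of Col11a1, Col17a1 and Col8a2 were below background on all 4 arrays. Col10a1, Col11a1 and Col9a3 are known from cartilage and Col17a1 from epithelial attachment. Of the 2 probes for Col2a1, the fibrillar chain of cartilage, 1 was above background only on testosterone replicate 2 and the other on no array. The single probe of Col8a1, a short-chain collagen of vessel walls, was above background on both arrays numbered 2 and on neither array numbered 1. Absence from this list of detected chains says only that a probe was not well above background.

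**Figure D1:**
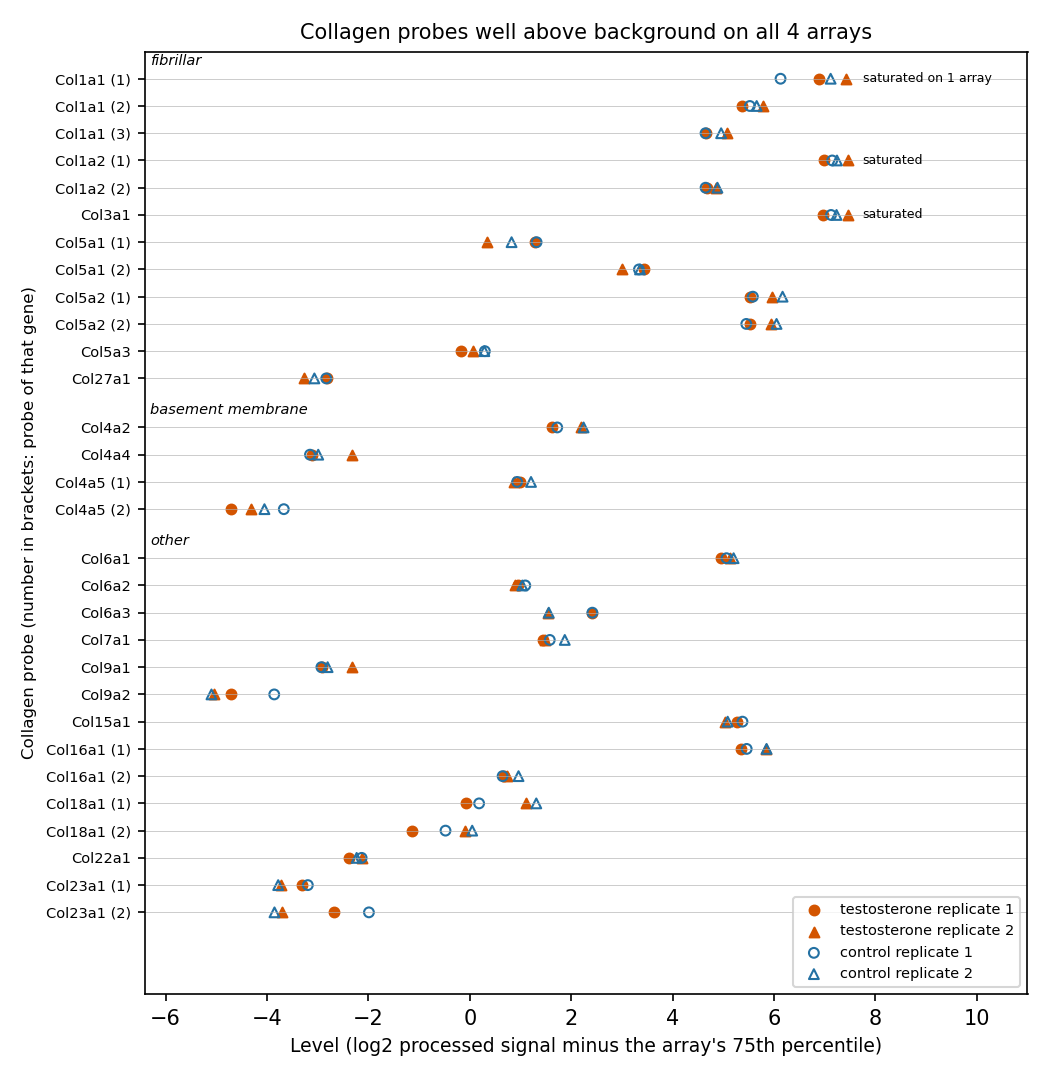
Level of each collagen probe on each array (x axis, log2 processed signal minus the array's 75th percentile), for the 30 probes well above background on all 4 arrays, by class. Filled symbols are testosterone and open symbols control arrays, circles are arrays numbered 1 and triangles arrays numbered 2; probes of a gene are numbered in order of their identifiers. For Col6a3 the arrays of each number lie on top of each other, at 2.41 and 2.42 for number 1 and 1.55 and 1.56 for number 2.

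Testosterone was not accompanied by a collagen difference that passed the test. Of the 30 tested probes, 7 were higher and 23 lower in mean with testosterone, where 47.7% and 52.3% of all 25890 tested probes were. At an adjusted p under 0.05 in limma (Benjamini-Hochberg over all tested probes) 0 of the 30 were called, and percent called over all probes was 0. At an unadjusted p under 0.05 there were 0 of 30, against 0.803% of all probes, the smallest p in limma being 0.0556. The groups did not overlap for 4 of the 30, each with testosterone lower (8.95% of all probes), and for 0 with testosterone higher (6.13%). The median difference was -0.09 on the log2 scale, and over all tested probes it was -0.01. Each of the 30 intervals at 95% included 0, and their median half-width was 0.68.

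The 4 probes with testosterone below control on every array belonged to Col4a5, Col5a3, Col6a2 and Col7a1, and they differed by -0.66, -0.34, -0.14 and -0.27. With normexp and quantile normalization 2 probes had testosterone higher on every array and 6 lower, against 5.86% and 10.6% of all probes. The sign of the testosterone difference was negative in both array numbers for 13 of the 30 probes, positive in both for 4 and opposite for 13. In absolute size 28 of the 30 differences were under 0.5. Leaving out control replicate 2 left control replicate 1 as the only control array. The largest difference over all tested probes was then 12.4, against 6.20 with all 4 arrays, and the collagen median was -0.01.

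**Figure D2:**
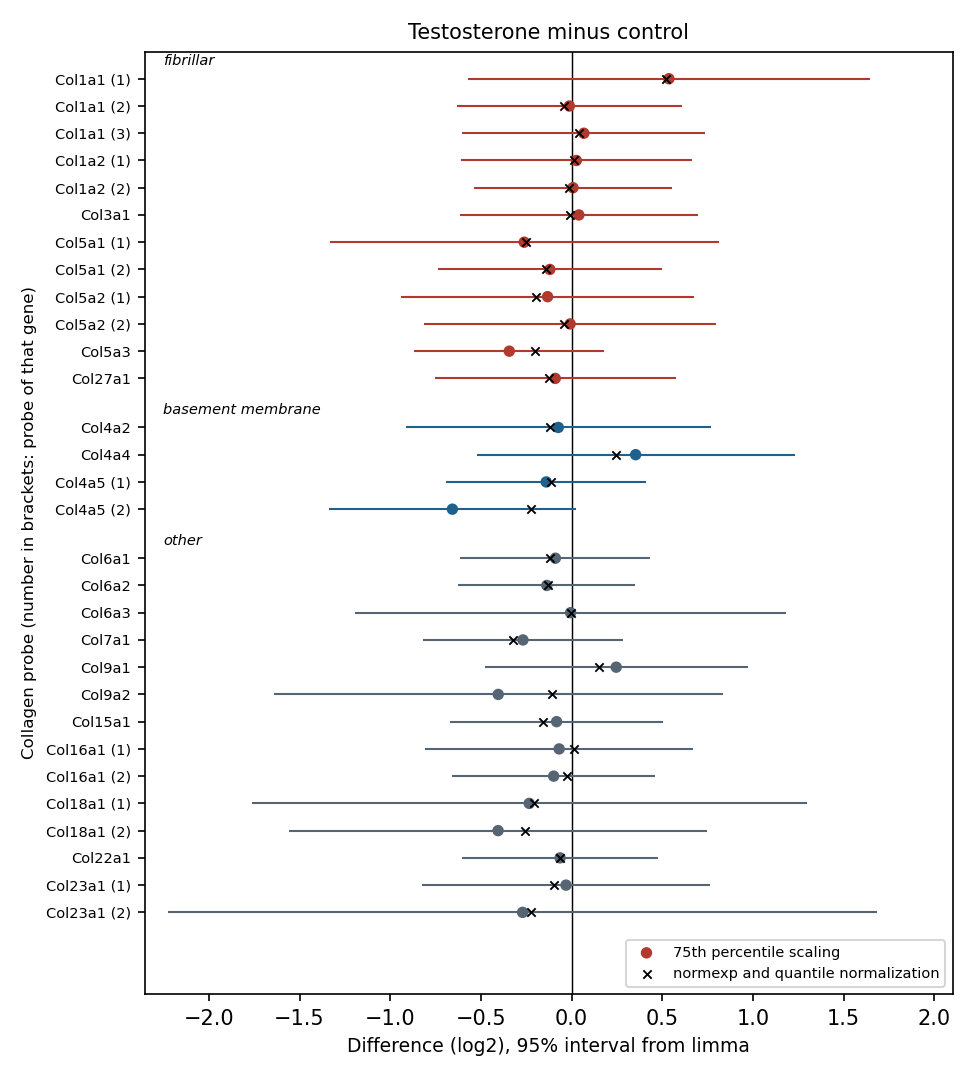
Testosterone minus control for the 30 collagen probes (x axis, log2 difference; dots, 75th percentile scaling; bars, 95% interval from limma over 2 against 2 arrays; crosses, normexp and quantile normalization). Each interval includes 0, and the probe farthest below 0 is that of Col4a5 at -0.66.

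Of the type I fibrillar chains, 0 of 5 probes passed the test. The brightest Col1a1 probe (chromosome 10, 83638177 to 83638236, rn4) read 6.90 and 7.42 with testosterone and 6.13 and 7.12 in control. Only testosterone replicate 2 was saturated, and the low array was control replicate 1. The difference was 0.54 (95% interval -0.57 to 1.64), and it was 0.04 without control replicate 1. The other probes of Col1a1 differed by -0.01 and 0.07, so the 3 probes did not have one sign.

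Col1a2, the partner chain in type I fibrils, was saturated on all 4 arrays at its brightest probe, so that probe gives no measured difference. Its unsaturated probe (chromosome 4, 29425301 to 29425360) read 4.69 and 4.86 with testosterone and 4.65 and 4.88 in control. The groups overlapped almost fully, with a difference of 0.01 (-0.54 to 0.55). Col3a1, the chain of type III fibrils found beside type I in soft tissue, was also saturated on all 4 arrays (chromosome 9, 44317465 to 44317524), and its difference was not measured.

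Among type V chains, which start and limit fibrils, the brighter Col5a1 probe (chromosome 3, 6970910 to 6970969) read 3.44 and 3.01 with testosterone and 3.34 and 3.36 in control. Its difference was -0.12 (-0.74 to 0.50). Testosterone replicate 2 was the low array here. Col5a2 (chromosome 9, 44375480 to 44375539) read 5.53 and 5.96 with testosterone and 5.58 and 6.17 in control, and both high values were on arrays numbered 2. Its difference was -0.13 (-0.94 to 0.68), and that of its other probe was -0.01.

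Col5a3, the rarer type V chain (chromosome 8, 19789129 to 19789188), read -0.17 and 0.06 with testosterone and 0.30 and 0.29 in control. The groups did not overlap, and the interval of the difference of -0.34 ran from -0.87 to 0.18. Col27a1, a fibrillar chain of cartilage and other developing tissues (chromosome 5, 80313124 to 80314674), read -2.81 and -3.27 with testosterone and -2.83 and -3.07 in control, where the groups overlapped and the difference was -0.09.

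Basement membrane chains gave no testosterone difference that passed either. Col4a2 (chromosome 16, 82900301 to 82900360), which trimerises with the Col4a1 chain into the common type IV network, read 1.62 and 2.20 with testosterone and 1.72 and 2.24 in control. These values separated by array number and not by treatment, and the difference was -0.07 (-0.91 to 0.77). Col4a4, a chain of specialised basement membranes such as that of the kidney filter (chromosome 9, 81867050 to 81867109), read -3.12 and -2.31 with testosterone and -3.15 and -2.99 in control. Testosterone replicate 2 alone stood apart, for a difference of 0.35 (-0.52 to 1.23). A probe described as similar to the same chain, outside the naming rule, was below background on all 4 arrays.

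Col4a5, the X-linked chain of the same specialised networks, had a pair of probes. The brighter (chromosome X, 36919794 to 36919853) read 0.99 and 0.87 with testosterone and 0.93 and 1.21 in control, for a difference of -0.14 (-0.69 to 0.41). The dimmer (chromosome X, 36958983 to 36959042) read -4.71 and -4.33 against -3.67 and -4.05. There both testosterone arrays were below both controls, and the difference of -0.66 (-1.34 to 0.02) was the farthest from 0 of the 30. Both Col4a5 probes are among the 7 of 30 tested collagen probes in columns 57 to 85 of the array, which 1 alternative left out. With normexp and quantile normalization the difference of the dimmer probe was -0.22.

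Among the other chains, the type VI chains of beaded filaments gave no testosterone difference that passed the test. Col6a1 (chromosome 20, 12337772 to 12337831) read 4.95 and 5.14 with testosterone and 5.06 and 5.20 in control. Col6a2 (chromosome 20, 12463646 to 12463705) read 0.96 and 0.90 against 1.09 and 1.04. Their differences were -0.09 (-0.61 to 0.43) and -0.14 (-0.62 to 0.35), and that of Col6a3 was -0.0057 (-1.20 to 1.18).

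Col7a1, the anchoring fibril chain (chromosome 8, 114002273 to 114002332), read 1.44 and 1.48 with testosterone and 1.58 and 1.87 in control, a difference of -0.27 (-0.82 to 0.28). Col9a1, a chain that coats cartilage fibrils (chromosome 9, 22976816 to 22982770), read -2.92 and -2.32 with testosterone and -2.93 and -2.81 in control, for 0.25 (-0.48 to 0.97). Its one high array was testosterone replicate 2. Col9a2 (chromosome 5, 141640110 to 141640169) differed by -0.40 (-1.64 to 0.83), with control replicate 1 high at -3.86 and the other arrays between -5.10 and -4.72. Col23a1, a transmembrane collagen, read -2.68 and -3.71 with testosterone at its brighter probe and -1.99 and -3.85 in control, which overlapped, for a difference of -0.27 (-2.23 to 1.69). Col15a1 and Col22a1, each with a single probe of that name, differed by -0.08 and -0.06. A probe described as similar to the type XXII chain, outside the naming rule, was below background on all 4 arrays.

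Arrays numbered 2 and 1 were farther apart than the treatments. Of the 30 collagen probes, 16 had both arrays numbered 2 above both numbered 1 and 7 had both below, where 36.8% and 26.8% of all tested probes did. With probes saturated on any array left out, 13 of 27 were above and 7 below. At an adjusted p under 0.05 in limma, 1 collagen probe was called, that of Col6a3, against 2.09% of all probes. At an unadjusted p under 0.05 there were 12 of 30 and 29.3% of all probes. In mean, 21 were higher and 9 lower on the arrays numbered 2, against 56.5% and 43.5% of all tested probes. The median difference was 0.18 for the collagens and 0.06 over all tested probes.

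The size of many of these differences, and the direction of some, rested on how arrays were scaled. With normexp and quantile normalization the collagen median was 0.02 and that of all probes -0.03, with 9 of 30 collagen probes above and 8 below without overlap, against 25.6% and 35.7% of all probes. Probes saturated on all 4 arrays, whose raw signals are capped, had a median difference of 0.26 at the 75th percentile scaling, which is a shift of the scale and not a measured change. The saturated probes of Col1a2 and Col3a1, at 0.28 and 0.30, are of that kind, and at quantile normalization they were at -0.0009 and 0.006. Of the 30 differences 25 kept their sign under every alternative that used all 4 arrays and 5 did not. A block on the treatment group left 0 probes called over the whole array, and so did leaving out testosterone replicate 2 or control replicate 2, while 36 were called without control replicate 1. The call of Col6a3 ended in each of these fits, and also without testosterone replicate 1.

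**Figure D3:**
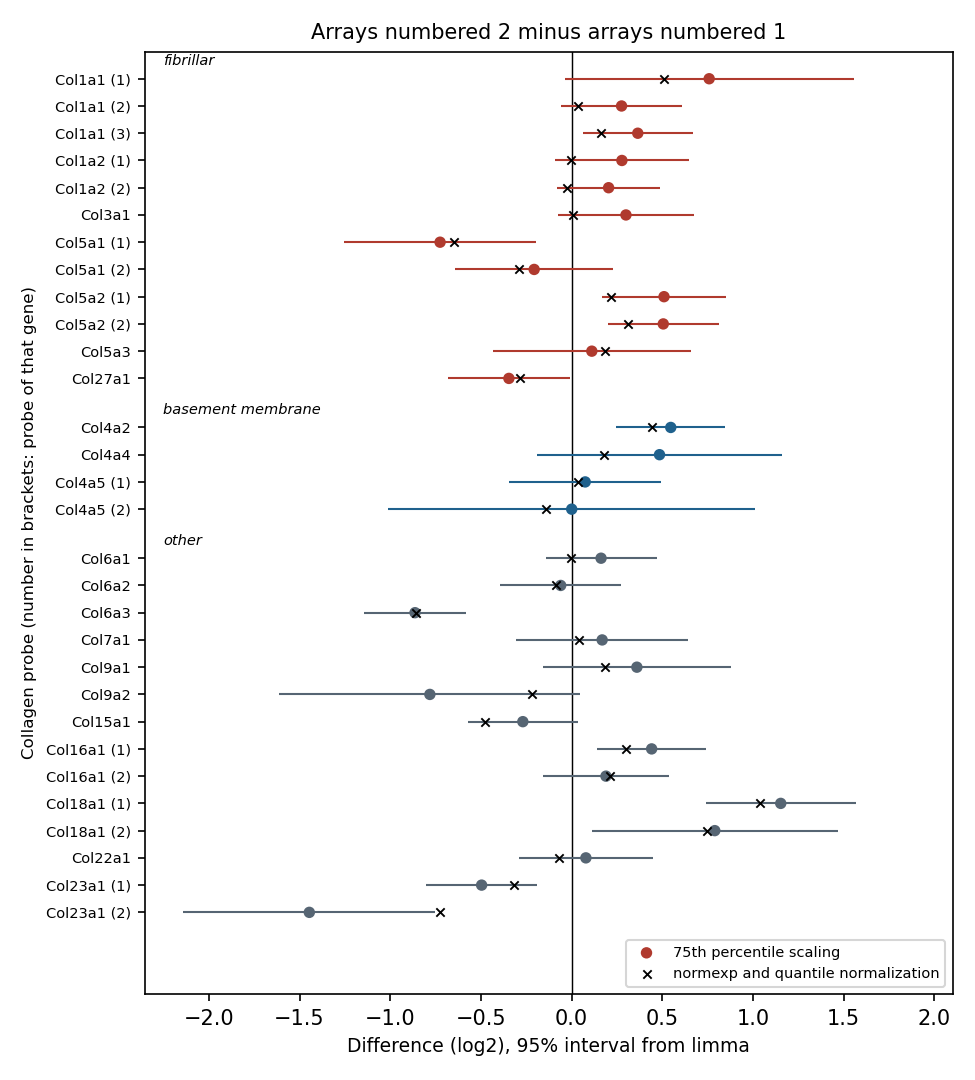
Arrays numbered 2 minus arrays numbered 1 for the same 30 collagen probes (x axis, log2 difference; dots with 95% intervals from limma, 75th percentile scaling; crosses, normexp and quantile normalization). Probes of Col18a1 and Col4a2 lie above 0 and those of Col6a3 and Col23a1 below 0 with both scalings, while the type I and III probes other than the brightest of Col1a1 move to near 0 or to 0.16 with quantile normalization.

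Col6a3, the large chain of type VI filaments (chromosome 9, 89943801 to 89966500, an interval that spans introns), fell between the array numbers. It read 2.41 and 2.42 on the arrays numbered 1, testosterone first, and 1.55 and 1.56 on those numbered 2. The difference was -0.86 (-1.15 to -0.58; adjusted p = 0.0458 in limma), 1.82-fold lower. It lay between -0.87 and -0.85 over the alternatives with all 4 arrays, whose adjusted p in limma reached 0.108 with the treatment group as a block and was 0.00997 with normexp and quantile normalization. Of its partner chains, Col6a1 differed by 0.16 (-0.14 to 0.47) and Col6a2 by -0.06 (-0.39 to 0.27), and whether the 3 differ from each other was not tested.

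Col18a1, a basement membrane proteoglycan chain whose end fragment is endostatin, had the largest positive difference of the 30 tested probes. Its brighter probe (chromosome 20, 11981417 to 11981476) read -0.08 and 0.18 on arrays numbered 1 and 1.10 and 1.31 on arrays numbered 2, and the numbers did not overlap. The difference was 1.15 (0.74 to 1.57), 2.22-fold, with an adjusted p of 0.0513 in limma, which missed the threshold, and of 0.0184 with normexp and quantile normalization. The other probe, overlapping it in position, differed by 0.79 (0.11 to 1.47).

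Col23a1 differed the other way at both of its probes. The brighter (chromosome 10, 37096029 to 37096088) read -2.68 and -1.99 on arrays numbered 1 and -3.71 and -3.85 on arrays numbered 2, a difference of -1.45 (-2.14 to -0.75; adjusted p = 0.0653 in limma). The other probe differed by -0.50 (-0.80 to -0.19). With normexp and quantile normalization these were -0.73 and -0.32. Col8a1, below background on the arrays numbered 1, was at least 2.24-fold higher on the arrays numbered 2, where it read -4.47 and -4.27; the bound sets those against the lowest signal well above background and was not tested in this fit. A probe described as the same type VIII chain, outside the naming rule, was below background on all 4 arrays.

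Fibrillar chains did not run one way by number. Col5a2 differed by 0.51 (0.17 to 0.85) and 0.51 (0.20 to 0.81) at its probes, with 0.22 and 0.31 after quantile normalization. Col5a1, its partner in type V trimers, differed by -0.21 (-0.64 to 0.23) and -0.73 (-1.25 to -0.20), with -0.29 and -0.65. Col27a1 differed by -0.35 (-0.68 to -0.01). The Col1a1 probes differed by 0.28, 0.36 and 0.76, and after quantile normalization by 0.03, 0.16 and 0.51, while the unsaturated Col1a2 probe differed by 0.20 and then by -0.03. None of these passed the test in limma at the 75th percentile scaling.

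Of the basement membrane chains, Col4a2 differed by 0.55 (0.25 to 0.85; adjusted p = 0.0752 in limma), with 0.44 and an adjusted p of 0.0443 after normexp and quantile normalization. Col4a4 differed by 0.48 (-0.19 to 1.16), by 0.18 after normexp and quantile normalization, by 0.15 without testosterone replicate 2 and by 0.82 without control replicate 2, and the Col4a5 probes by 0.07 and 0.0006. Among chains that decorate fibrils or basement membranes, the brighter Col16a1 probe (chromosome 5, 149126166 to 149126225) read 5.34 and 5.46 on arrays numbered 1 and 5.83 and 5.85 on arrays numbered 2. Its difference of 0.44 (0.14 to 0.74; adjusted p = 0.0978 in limma) did not pass, and the other Col16a1 probe differed by 0.19 (-0.16 to 0.54). Col15a1, a multiplexin like Col18a1, differed by -0.27 (-0.57 to 0.03), and by -0.48 after quantile normalization. Col9a2 differed by -0.78 and Col9a1 by 0.36, each with an interval that included 0. For Col9a2 the value was -0.22 after normexp and quantile normalization, -0.35 without control replicate 1 and -1.21 without testosterone replicate 1. Probes described as the same 2 chains but outside the naming rule differed by 0.01 and 0.14.

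The enzymes and partners that finish a collagen were read from a list of 46 genes, of which 39 had a probe and 36 were tested. They cover hydroxylation and folding, removal of propeptides, cross-linking and assembly, and receptors. With testosterone 17 of the 36 were higher in mean and 19 lower, 0 passed the test in limma, and the median difference was -0.01. Among genes above background on all 4 arrays the largest were those of Fkbp10, a collagen chaperone, at 1.48 (-1.66 to 4.63), Loxl3 at -0.43 (-1.38 to 0.53) and Lum at 0.34 (-1.90 to 2.59). Fkbp10 read -2.29 on control replicate 1 and between 0.88 and 1.20 on the other 3 arrays, and its probe lies in columns 57 to 85 of the array, which 1 alternative left out.

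By array number 29 of the 36 were higher and 7 lower in mean on arrays numbered 2, the median difference being 0.24 (0.05 after normexp and quantile normalization). At an adjusted p under 0.05 in limma 4 rose and 0 fell, against 1.56% of all probes called higher and 0.525% lower. The 4 were Lox, the lysyl oxidase that starts cross-linking, Lum, a proteoglycan that spaces fibrils, P4ha3, a prolyl hydroxylase subunit, and Itga1, a collagen receptor chain, of which P4ha3 and Itga1 are named because they passed. With the treatment group as a block 0 of the 4 passed.

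Lox read -0.76 and -0.82 on arrays numbered 1 and 1.20 and 1.09 on arrays numbered 2, a difference of 1.93 (1.63 to 2.24; adjusted p = 0.0210). Lum read 0.24 and 0.09 on arrays numbered 1 and 2.17 and 1.62 on arrays numbered 2, and differed by 1.73 (1.15 to 2.31; adjusted p = 0.0472). P4ha3 differed by 1.51 (1.07 to 1.96; adjusted p = 0.0393) and Itga1 by 0.96 (0.65 to 1.27; adjusted p = 0.0448), all in limma. In each of the 4 the numbers were apart and the treatments were not. Fkbp10 differed by 1.69 (-1.31 to 4.68) and did not pass. Leaving out the saturated probes of Dcn, Sparc and Pcolce, 7 of 7 cross-linking and assembly genes and 4 of 4 propeptide genes had both arrays numbered 2 above both numbered 1, where 36.8% of all probes did. Of the 18 hydroxylation and folding genes 7 were above in this way and 2 below, and of the 4 receptors 1 and 1. Over all 36 genes, saturated probes included, 22 were above and 3 below, where 26.8% of all probes were below. After normexp and quantile normalization the medians of the full cross-linking and propeptide lists were 0.32 and 0.04. Loxl4, a cross-linking enzyme, was then at -0.02.

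**Figure D4:**
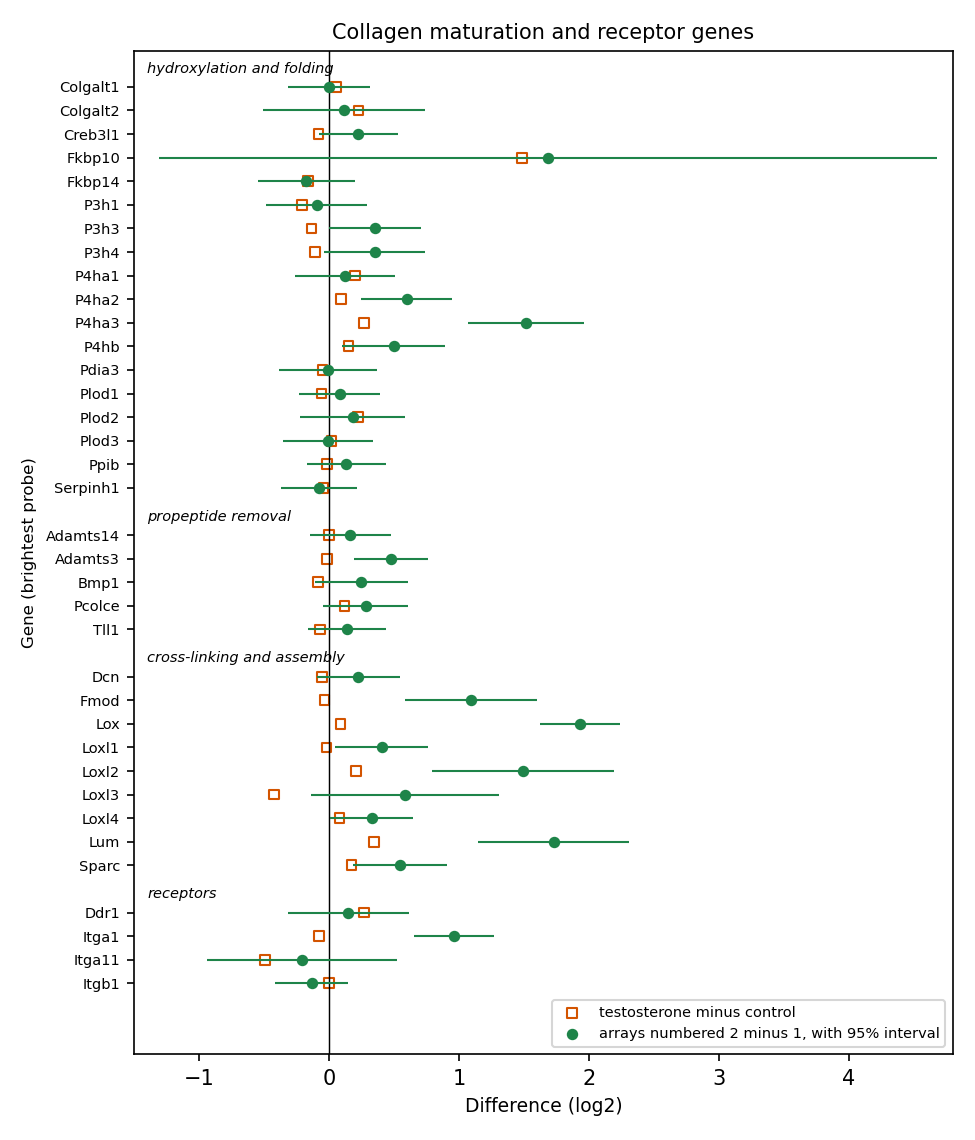
Differences of the 36 tested collagen maturation and receptor genes (x axis, log2, 75th percentile scaling; squares, testosterone minus control; dots with 95% intervals from limma, arrays numbered 2 minus 1), by role. Lox, Lum, P4ha3 and Itga1 lie between 0.96 and 1.93 by number, while their testosterone differences lie between -0.08 and 0.34.

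Markers of other cell types moved with the array number too. Of 5 germ cell markers on the array, 2 were above background on all 4 arrays: Tnp1 and Prm1 of spermatids, which differed by 4.70 and 2.87 in favour of arrays numbered 2 (adjusted p = 0.0167 and 0.0284 in limma). Ddx4 and Sycp3 were above background on some arrays, and Acrv1 was on none. Sums given here add the signals of a list's markers on a linear scale, above background or not, and are then put on the log2 scale. The summed level of the germ cell markers was -1.22 and -1.38 on arrays numbered 1 and 2.14 and 2.16 on arrays numbered 2. Macrophage markers summed to 7.10 and 7.30 on number 1 and to 6.79 and 6.83 on number 2, with 5 of 5 above background on all 4 arrays. Of these 5, Cd68, Tyrobp and Csf1r differed by -0.52, -0.53 and -0.50 (number 2 minus 1), and Aif1 and Cd163 by 0.62 and 0.41. Endothelial markers summed to -0.55 and -0.30 on number 1 and to 0.20 and 0.72 on number 2, with 3 of 6 above background on all 4 arrays and Tek on none. Kdr was higher on number 2 by 1.92 and Cdh5 by 0.39, and Vwf differed by -0.43. Of Sertoli cell markers, 3 of 7 on the array were above background on all 4 arrays and Wt1 on none. All 7 summed to 1.49 and 1.66 on number 1 and 1.86 and 1.53 on number 2. Among the 3, Cldn11 differed by -1.16 (adjusted p = 0.0387 in limma), while Inhbb and Amh differed by 0.75 and 0.13. Of Leydig cell markers 5 of 6 were above background on all 4 arrays and Lhcgr on none. Leydig cell markers summed to 6.56 and 6.66 on number 1 and to 6.92 and 6.72 on number 2. The brightest probes weigh most in such a sum, and it does not show the direction of most of these markers. Star differed by 0.60, while 4 of the 5 had both arrays numbered 2 below both numbered 1. Among these 4, Insl3, Hsd3b1 and Cyp11a1 differed by -0.30, -0.28 and -0.93, and Cyp17a1 was lower as well. The median difference of the 5 was -0.30 (-0.42 after normexp and quantile normalization). Tagln had the largest difference of the tested smooth muscle markers, at 1.75 (0.57 after normexp and quantile normalization; adjusted p = 0.0279 in limma). Des, Actg2, Tpm2 and Myl9 differed by 0.60, 0.65, 0.30 and 0.16, and Cnn1 was above background on none. Fibroblast and interstitial markers were mixed. Lum and Dpt differed by 1.73 and 0.74, Pdgfra by -0.002 and Pi16 by -0.57. Dcn was saturated, and Thy1 was above background on none. The part of these cell types in the collagen differences was not tested.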

How the data were processed

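The file headers name Feature Extraction 11.5.1.1 as the image software and rn4 as the rat build; version 10.5 is given in the submitters' processing notes. The deposited files give each spot's intensity as a background-corrected processed signal, beside the mean signal and local background. The authors' deposited table holds log2 values. Over 40749 probes printed once, each of its columns was the processed signal in log2 less a fixed number between 8.38 and 8.79, and the column medians lay between -3.62 and -3.34, so its scale, centring and direction were known.

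Here processed signals were put on the log2 scale and centred, array by array, on the 75th percentile of the 43379 spots that are no controls. Control and outlier spots were left out, saturated spots kept and spots of one probe averaged. Tested probes had both arrays of testosterone, of control or of each well above background. The 2-sided tests came from lmFit and eBayes of limma 3.58.1 (R 4.3.3), with no covariate, over all 25890 tested probes, with Benjamini-Hochberg adjustment and 95% intervals, and were tested on simulated data. With 2 against 2 arrays the number of arrays limits the precision.

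Members, gene lists and contrasts were chosen with earlier results of these data known. Values are given for each fibrillar, type IV and type VI chain above background on all 4 arrays and for the 4 largest differences per contrast among other chains, by the brightest probe, and for the 3 largest per contrast of the maturation list. The 29 gene names matched symbols of the reference table of GRCr8. Alternatives changed background correction, centring, values, filter, probe choice, columns 57 to 85, covariate and arrays. Probe sequences were not used here.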

Additional observations from a re-analysis of the deposited data

How the results depend on the processing

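For testosterone, limma called 0 probes under each alternative with all 4 arrays and 0 to 67 with 1 array left out, where the single array of a group was given the spread of the other group. The collagen median of -0.09 moved to -0.0354 with no detection filter and ran from -0.16 to 0.0337 with 1 array left out, and no collagen probe was called in these fits. The number of collagen probes with groups apart was 4 (15.1% of all probes), 8 with normexp and quantile normalization (16.4%), of which 2 had testosterone higher, and 16 to 18 with 3 arrays (45.1% to 69.4%). With the replicate number as a block (replicate block) limma called 0 probes, the collagen median stayed at -0.09, the median half-width of the collagen intervals was 0.44 in place of 0.68, and 1 fibrillar probe had an unadjusted p under 0.05. Deviations of same-numbered arrays correlated at 0.589 over 24497 probes, but no label ties same-numbered arrays to one culture or animal. The differences of Col16a1 and Col3a1 turned to 0.0117 and -0.00699 with normexp and quantile normalization.

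By array number, the 541 calls became 2602 with normexp and quantile normalization, 2212 with probes detected on all 4 arrays, 1448 without columns 57 to 85, 1508 with detection on both arrays of 1 number (an alternative chosen after seeing the data), and 0 with no detection filter or with the treatment group as a block; with 1 array left out there were 0 to 555. Collagen calls were 6, 3, 3, 3, 0 and 0 in the same order, and 0 to 1 with 1 array left out. Detection on both arrays of 1 number tested 31 collagen probes, with Col8a1 let in only by the arrays numbered 2, where it was higher. A call gained through such a filter gives no support for a difference. The collagen median was 0.0200 with normexp and quantile normalization and 0.13 to 0.29 with 1 array left out. Collagen probes apart numbered 15 with the brightest probe per gene, where 21 probes were tested (63.2% of all), and 25 to 28 of 30 with 3 arrays (79.0% to 83.5%). Col1a2 and Col6a1 turned to -0.000852 and -0.00536 with normexp and quantile normalization. The probes of Col1a2 and Col3a1 here are saturated on all 4 arrays and give no measured difference. Of the other 17 named chains, 16 kept their sign in each contrast under every alternative with all 4 arrays. With 1 array left out and no change of sign, the number differences of Col1a1, Col4a4, Col9a1 and Col9a2 ran from 0.38 to 1.14, 0.15 to 0.82, 0.12 to 0.60 and -1.21 to -0.35. With 1 array left out, the testosterone differences that changed sign were these, as ranges: Col16a1 -0.31 to 0.18, Col18a1 -0.82 to 0.36, Col1a2 -0.20 to 0.26, Col23a1 -1.20 to 0.66, Col27a1 -0.32 to 0.14, Col3a1 -0.21 to 0.29, Col4a2 -0.36 to 0.21, Col4a4 -0.0503 to 0.76, Col5a1 -0.34 to 0.10, Col5a2 -0.43 to 0.16, Col6a1 -0.18 to 0.00292, Col6a3 -0.44 to 0.43, Col9a1 -0.0520 to 0.54, Col9a2 -1.02 to 0.21. By number they were Col4a5 -0.0946 to 0.24, Col5a3 -0.12 to 0.34, Col6a2 -0.13 to 0.00885, Col7a1 -0.0292 to 0.37. The cause of these shifts was not tested, apart from the fewer probes or arrays that a setting leaves.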

Other observations

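Collagens also occur on the array under accession numbers or predicted gene names, outside the naming rule above. Of 20 such probes by their descriptions, 6 were well above background on all 4 arrays. A probe described as a fragment of the type V alpha-2 chain, the product of Col5a2, read 5.44 and 5.86 with testosterone and 5.89 and 5.92 in control. It differed by -0.26 with testosterone and by 0.23 by array number, beside 0.51 at both probes that carry the name Col5a2. A probe described as similar to the type IV alpha-6 chain, which pairs with the X-linked Col4a5 chain in some basement membranes, read -2.71 and -2.61 with testosterone and -2.68 and -2.83 in control, so it differed by 0.09 and by -0.02. A probe described as similar to a type VI alpha-3 isoform, under the name RGD1564060_predicted, differed by 1.01 by number (0.17 after normexp and quantile normalization), in the opposite direction to Col6a3; the reference table lists that name as an older one for Col6a4. Of the 6, 0 passed the test in limma in either contrast. Both probes described as a fragment of the type XII chain were below background on all 4 arrays. Of 2 probes described as similar to the type XXIV chain, 1 was above background on the arrays numbered 2, at -2.30 and -2.82, and below it on those numbered 1, at -6.60 and -5.24. The other was above background on testosterone replicate 2 alone, at -4.54, and read -7.80 on control replicate 2.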
